A study of Mus musculus with 28 samples.

Results

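The last 2 Mb of the 19 mouse autosomes held 6019 of the 424539 regions of cytosine modification in the data set (1.42%). Of these, 2983 were regions of 5-hydroxymethylcytosine (5hmC), out of 206417, and 3036 were regions of 5-methylcytosine (5mC), out of 218122. A region is a set of peaks of 1 mark merged over libraries wherever they overlapped by at least 1 bp. The end of a chromosome was taken as the last base of the last peak in any list, and a region belonged to the end if its own last base lay within 2000000 bp of that position. Positions are in the build mm9, counted from 1. Each of the 19 end positions came from a single peak of a single library, a 5mC peak on 14 chromosomes and a 5hmC peak on 5. It is therefore the edge of the detected signal and not the tip of the chromosome.

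The libraries came from bone marrow cells labelled LK, a short name used for progenitor cells that lack lineage markers and carry Kit, which the labels do not spell out. The mice were C57BL/6 animals aged 6 to 10 weeks. Controls were wild type (WT), 1 knockout line lacked Tet2 (Tet2KO), and the other lacked Tet2 together with Tet1 (DKO). The hMe-Seal method, which tags 5hmC chemically and pulls it down, was run on 2 libraries of each genotype. 5mC was captured by immunoprecipitation of methylated DNA (MeDIP-seq) in 2 WT libraries, 2 DKO libraries and 1 Tet2KO library. How the alleles were made, and whether libraries came from separate mice or pools, is not given in the sources used here. The p-values below therefore refer to the scatter of these libraries, part of which may be technical. With peak lists alone, neither the labelled cell type nor the knockouts could be checked. A further 17 samples of the series, from RNA-seq, have no place in this account and were not analysed here.

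Mouse autosomes have their centromere at the start of the sequence, so the far end of each is the tip of its long arm. The stretch next to a telomere, the subtelomere, carries blocks of sequence shared between chromosomes before the unique, often gene-rich sequence begins. DNA there is methylated by the DNMT enzymes, and the dioxygenases encoded by Tet1 and Tet2 oxidise 5mC to 5hmC, a mark known for its place in active gene bodies and enhancers. Telomere repeats themselves hold no CG dinucleotide and do not carry CG methylation.

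In the RefSeq annotation of the assembly GRCm38.p6, the last protein-coding genes differ in kind from end to end. Chromosome 11 closes with Zfp750, Tbcd, B3gntl1 and Metrnl among its last 6 genes, and chromosome 4 with Perm1, Plekhn1, Klhl17, Noc2l and Samd11 among its last 6. Chromosome 10 closes with Vmn2r84 to Vmn2r87, genes of vomeronasal receptors that sense pheromones. Among the last genes of chromosome 17 is Fshr, the receptor for follicle-stimulating hormone. Since this assembly is not mm9, peaks were not matched to genes, and the order of genes is given as background only.

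The ends were far from alike. Across the 6 libraries, 5hmC peaks covered 17.7% of the end of chromosome 11 (121818106 is its last base), 13.9% of chromosome 4 and 7.13% of chromosome 15. At the other extreme they covered 0.128% of chromosome 18, 0.123% of chromosome 3 and nothing on chromosome 17. The ends of chromosomes 4 and 11 made up 44.4% of all 5hmC covered length of the 19 ends.

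On chromosome 11 (119818107 to 121818106), 5hmC peaks covered 18.8% and 18.9% in WT, 15.9% and 16.6% in Tet2KO, with 19.1% and 16.8% for DKO. On chromosome 4 (153630062 to 155630061), they covered 14.5% and 13.7% in WT, 13.4% and 13.0% in Tet2KO, with 14.9% and 13.9% for DKO. On chromosome 15 (101367816 to 103367815), the 6 values ran from 6.71% to 7.56%. The range of the libraries on chromosome 11 (15.9% to 19.1%) lay above that on chromosome 4 (13.0% to 14.9%), which in turn lay above that on chromosome 15. Counted back in 2 Mb windows along all autosomes, chromosome 11 lay at the 98.5 percentile of the 1199 windows and chromosome 4 at the 95.8 percentile. On both chromosomes the rest of the sequence had less 5hmC, 7.05% and 4.39%.

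The sparse ends were sparse in every library. On chromosome 3 (157572068 to 159572067), 5hmC covered 0.121% and 0.0573% in WT, 0.150% and 0.177% in Tet2KO, with 0.116% and 0.116% for DKO. On chromosome 18 (88771601 to 90771600), the 6 values ran from 0.0892% to 0.172%. On chromosome 17 (93261623 to 95261622), no library of any genotype had a 5hmC peak, and the last 5hmC region of that chromosome lay 3774 kb before the end, a region of 721 bp seen in WT replicate 2 alone. On chromosome 14 the outer 1700 kb held no 5hmC region, and the last one (123380901 to 123381577) had a peak in 5 of 6 libraries. The rest of these chromosomes had more 5hmC: 3.11%, 3.76%, 6.36% and 3.14% was covered on chromosomes 3, 18, 17 and 14. The values of chromosomes 3 and 14 were the lowest of the 19 autosomes. How much of each end can be mapped was not examined, so its part in these low values was not tested.

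**Figure D1:**
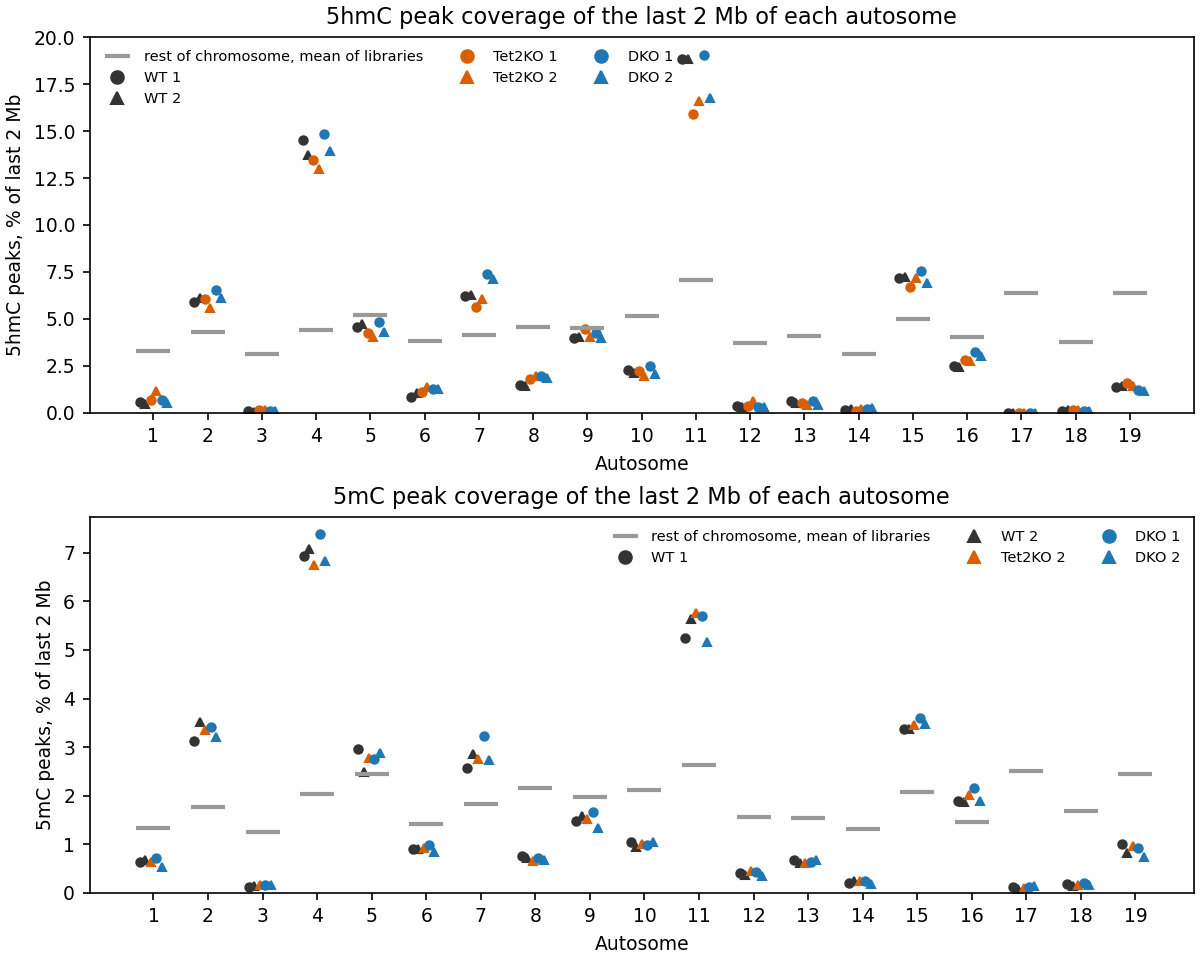
Percent of the last 2 Mb of each autosome covered by 5hmC peaks (top) and 5mC peaks (bottom). Each symbol is 1 library (circle, replicate 1; triangle, replicate 2; colour, genotype), and the grey bar is the mean over libraries for the rest of that chromosome. For 5hmC the ends of chromosomes 4 and 11 stand at 13.9% and 17.7% on average while chromosome 17 is at 0.

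Coverage by 5mC peaks followed a like order at a lower level. It was 6.996% on chromosome 4, 5.50% on chromosome 11 and 3.46% on chromosome 15, and 0.169%, 0.146% and 0.116% on chromosomes 18, 3 and 17. On chromosome 4 the WT libraries had 6.93% and 7.08%, the Tet2KO library 6.76%, and the DKO libraries 7.38% and 6.83%. On chromosome 17 the WT libraries had 0.127% and 0.0738%, the Tet2KO library 0.105%, and the DKO libraries 0.125% and 0.148%. The 2 densest ends changed places between the marks, since chromosome 11 had the most 5hmC and chromosome 4 the most 5mC. Over the 19 ends the Spearman correlation of the 2 marks was 0.986, and over the 1180 other windows it was 0.921. This is a description across windows whose base composition, gene content and mappability are shared by both assays.

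The balance of the marks varied from end to end. On chromosome 11, 5hmC covered 3.21 times the length that 5mC did, on chromosome 9 it was 2.73 times, and on chromosome 4 it was 1.99 times. On 6 of the 19 ends (chromosomes 3, 12, 13, 14, 17 and 18) 5mC covered more than 5hmC. That is 31.6% of ends, and 5mC covered at least as much as 5hmC in 25.9% of the other windows. Both marks' peak widths enter such a ratio: the median region of the ends was 707 bp long for 5hmC and 356 bp for 5mC.

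Inside an end the signal was clustered. The densest 100 kb bin for 5hmC lay on chromosome 4 at 154530062 to 154630061, between 1000 and 1100 kb from the end. It was covered to 50.7% and 48.2% in WT, 48.3% and 46.2% in Tet2KO, with 54.9% and 51.6% for DKO, and its mean of 50.0% ranked 46 among all bins of the genome's autosomes. Together with the neighbouring bin, this stretch of chromosome 4 (154430062 to 154630061) held 78 5hmC regions, and 43 of these were found in every library. The same stretch had 53 5mC regions covering 7.30% of it. The next densest bin was on chromosome 11 at 120018107 to 120118106, with a mean of 39.4% and values from 33.2% to 42.4%. It belongs to a stretch of 400 kb (119818107 to 120218106) with 147 5hmC regions covering 33.0%, and 125 5mC regions covering 10.1%. Chromosome 15 had its cluster between 1000 and 1600 kb from the end (101767816 to 102367815), where 173 5hmC regions covered 17.3%. These stretches were picked from the bins and are given as description.

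The widest regions present in all libraries lay on chromosomes 5, 7 and 11. The longest 5hmC region of the ends with a peak in each of the 6 libraries was on chromosome 11 at 120084382 to 120091157 (6776 bp). Peaks covered 6190 and 4544 bp of it in WT, 2620 and 5288 bp in Tet2KO, and 6422 and 5978 bp in DKO. Tet2KO replicate 1 was the low library there, and its partner lay within the range of the others. The next were on chromosome 11 at 120004119 to 120010132 (6014 bp) and on chromosome 5 at 150955030 to 150960891 (5862 bp), and both overlapped a 5mC region present in all 5 libraries. For 5mC the widest was on chromosome 7 at 150644600 to 150647563 (2964 bp, between 2672 and 2936 bp covered in each library), which overlapped a constant 5hmC region. Constant here means a peak in every library of the mark. The others were on chromosome 11 at 120715270 to 120717708 (2439 bp) and on chromosome 7 at 151595421 to 151597768 (2348 bp).

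**Figure D2:**
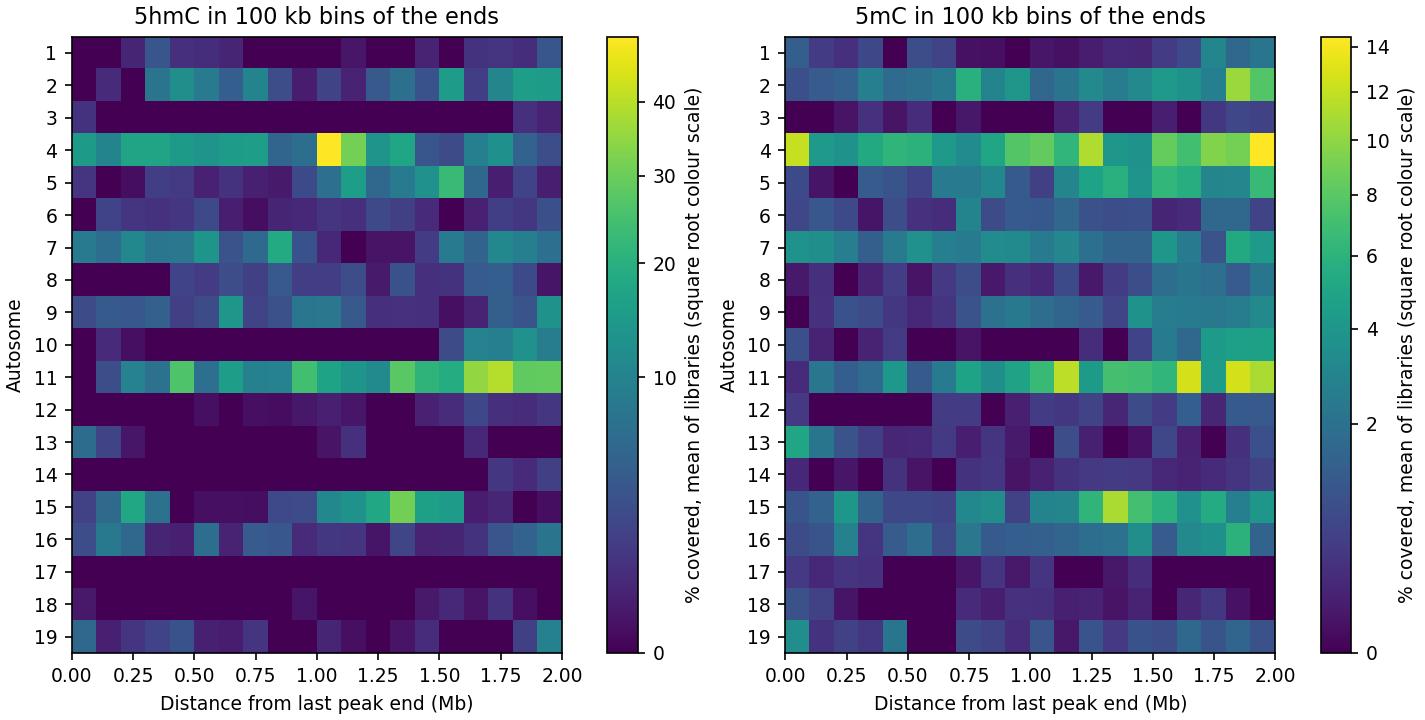
Coverage of the 20 bins of 100 kb in each end, by distance from the last peak end, as the mean over the 6 5hmC libraries (left) and the 5 5mC libraries (right) on a square root colour scale with its own range for each mark. Chromosomes 4, 11 and 15 carry the bright bins, chromosome 17 is empty for 5hmC, and chromosomes 3, 10 and 14 have long empty runs.

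Empty bins were common for 5hmC and less so for 5mC. Of the 380 bins, 130 had no 5hmC peak in any library (34.2%, beside 41.8% of all other bins) and 52 had no 5mC peak (13.7%, beside 13.1%). In 89 bins there was 5mC without any 5hmC, and 41 had neither mark. Chromosome 10 had a wide gap: between 100 and 1500 kb from the end, 7 5hmC regions covered 0.0569%, none of them constant, although 5hmC covered 15.1% of the 2 Mb window next to the end. The 5mC peaks of the same stretch covered 0.114% in 10 regions. On chromosome 17 the 16 5mC regions, 6 of them constant, were short, with a median of 276.5 bp and none longer than 431 bp.

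The outermost 100 kb stood out on a few chromosomes for 5mC. Coverage of that bin was 1.72% ± 0.0751 (SD, n = 5) as a mean over the 19 ends, and 1.01% ± 0.0782 (SD, n = 5) in the next bin. Chromosome 4 had 12.002% there, chromosome 13 had 5.07%, chromosome 7 had 3.79% and chromosome 19 had 3.49%. Chromosome 13 had 0.409% in the remainder of its end, so its signal was densest at the edge. Its 5hmC followed the same shape, with 6.25% in the outermost bin (4.33% to 9.32% over libraries) and 0.208% in the remainder. Because each end was defined by a peak, the outermost bin always holds at least 1 peak of 1 mark, and it is a description only. 5hmC was found in 10 and 5mC in 17 of the 19 outermost bins.

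Set against the rest of the autosomes, the ends had less 5hmC. Covered percent of the ends was 3.77% and 3.74% in WT, 3.58% and 3.62% in Tet2KO, with 4.04% and 3.69% for DKO, and of the rest 4.63%, 4.52%, 4.20%, 4.08%, 4.55% and 4.38% in the same order. All 6 libraries had lower coverage in the ends, with a mean difference of -0.654 points (SD 0.154, n = 6, exact sign-flip permutation p = 0.0312). That is the smallest p 6 libraries allow. Adjusted over 8 tests (4 quantities, 2 marks) it was 0.0625, the smallest value these tests could give, so none of them could pass 0.05. The number of peaks per Mb differed by -7.20, and the median peak width by -8.0 bp, each lower in 6 of 6 libraries with the same p and adjusted p. The mean hides the spread between ends. Without chromosomes 4 and 11 the mean of the ends was 2.32%, the median end had 1.75% and the median of the other windows was 2.93%. Of the 19 ends, 14 were below the rest of their own chromosome and 5 above.

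For 5mC the ends were close to the rest. They were covered to 1.77% and 1.79% in WT, 1.81% in Tet2KO, with 1.89% and 1.74% for DKO, while the rest lay between 1.79% and 1.86%. The difference was -0.0256 points, with 4 of 5 libraries lower in the ends (exact sign-flip permutation p = 0.188, adjusted 0.188). Peaks per Mb differed by -3.66 and median width by 11.5 bp, each in 5 of 5 libraries (exact sign-flip permutation p = 0.0625, the smallest 5 libraries allow, adjusted 0.0833). When peaks under a score of 100 were dropped, the difference in 5mC coverage turned to 0.0655 points. The first 2 Mb of the autosomes, at the centromere side, had 1.55% 5mC and 4.05% 5hmC.

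The contrast with the neighbouring sequence was larger than that with the rest. Moving inward in steps of 2 Mb, mean 5hmC coverage was 3.74%, 7.61%, 8.46%, 9.43% and 7.45%, and mean 5mC coverage was 1.80%, 3.87%, 3.97%, 4.53% and 3.60%. The end window was below the next one in 6 of 6 5hmC libraries, with a difference of -3.87 points (exact sign-flip permutation p = 0.0312, adjusted 0.0625 over 2 tests). It was below in 5 of 5 5mC libraries, with a difference of -2.07 points (p = 0.0625, adjusted 0.0625, exact permutation). This pair of tests was added after the values had been seen. The window next to the end had more 5hmC than the end on 15 of 19 chromosomes and more 5mC on 16. With ends of 5 Mb, which take in the dense neighbours, the ends exceeded the rest by 1.90 points for 5hmC and 1.31 points for 5mC.

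Coverage rose from the outer part of the ends inward. Mean 5hmC coverage by 500 kb was 3.04%, 2.81%, 4.24% and 4.87% within the end, and 7.88% just inside the boundary, where the step was the largest of these 4. At the boundary itself, the last 100 kb bin in the ends had 5.43% 5hmC and 3.49% 5mC, and the first bin outside had 6.68% and 2.89%. Between these 2 bins the marks thus moved in opposite directions, across a line which the rule alone sets. In steps of 500 kb both rose across it, 5mC from 2.85% to 3.39%.

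**Figure D3:**
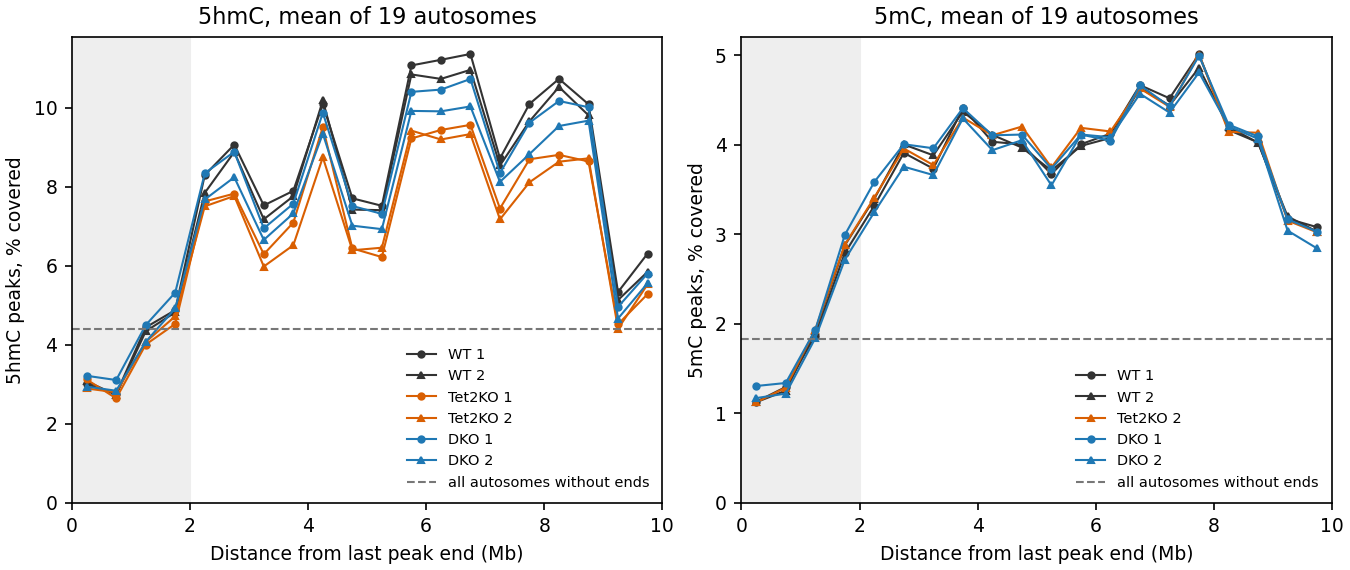
Mean coverage of the 19 autosomes in 500 kb steps by distance from the last peak end, 1 line per library, for 5hmC (left) and 5mC (right), with the last 2 Mb shaded and the mean of all autosomes without their ends dashed. Lines rise from 3.04% to 7.88% for 5hmC over the first 5 steps, and from 1 Mb inward both Tet2KO lines lie below both WT lines.

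End regions were about as reproducible as others. Of the 5hmC regions in the ends, 856 (28.7%) were constant, beside 29.9% of the remaining regions, and 842 (28.2%) were seen in 1 library, beside 25.8%. For 5mC, 1086 end regions (35.8%) were constant, beside 32.3%, and 840 (27.7%) were seen in 1 library, beside 30.5%. Constant 5hmC regions of the ends were wider than those of 1 library, with medians of 1133 and 494.0 bp, beside 1182 and 496 bp elsewhere. A constant region joins peaks of all 6 libraries, so it is wider in part by construction.

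The marks met on the same sequence slightly more often in the ends. The share of 5hmC peaks that overlapped a constant 5mC region was higher in the ends than in the rest in 6 of 6 libraries, by 2.10 points (exact sign-flip permutation p = 0.0312, adjusted 0.0625). For 5mC peaks on constant 5hmC regions the difference was 0.862 points, higher in 4 of 5 libraries (exact sign-flip permutation p = 0.125, adjusted 0.143). Both differences changed sign with ends of 1 Mb, to -2.17 and -1.39 points. Within the ends the higher share was thus that of the inner megabase. With ends of 5 Mb the differences were larger, at 3.96 points for 5hmC and 1.66 points for 5mC. Even so, most constant end regions carried 1 mark alone: 473 of 856 for 5hmC (55.3%) and 654 of 1086 for 5mC (60.2%) overlapped no region of the other mark. Among constant regions of the rest these shares were 57.1% and 60.4%, so this was not particular to the ends.

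The study's comparison asks what loss of Tet2, alone or with Tet1, does to both marks. Overall 5hmC coverage of the ends did not follow the number of genes lost. The genotype means were 3.76% ± 0.0190 in WT, 3.60% ± 0.0323 in Tet2KO and 3.87% ± 0.242 in DKO (SD, n = 2 each). The slope over the 3 genotypes was 0.0546 points per step (exact permutation p = 0.644, adjusted 0.773 over 6 tests), and it was -0.0490 without DKO replicate 1, the library with the highest value. The knockouts together differed from WT by -0.0244 points (exact permutation p = 0.933, adjusted 0.933). That difference was 0.0277 and 0.0125 points without Tet2KO replicate 1 and replicate 2, so it had no stable direction.

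The ends took a larger share of each knockout library's 5hmC. Of all covered length, 1.28% and 1.30% lay in the ends in WT, 1.34% and 1.397% in Tet2KO, with 1.39% and 1.33% for DKO. All 4 knockout libraries lay above both WT libraries, by 0.0709 points on average, and the groups did not overlap. The test did not pass (exact permutation p = 0.133, adjusted 0.300; 15 splits allow 0.0667 at the least), nor did the slope (exact permutation p = 0.2, adjusted 0.300). With ends of 5 Mb the difference was -0.0447 points. Coverage by distance gives the same values from the other side. Relative to the WT mean, Tet2KO coverage differed by -4.21% in the last 2 Mb (3.60% against 3.76%) and by -12.2%, -13.6%, -15.1% and -14.5% in the 4 windows that followed inward. DKO coverage differed by 2.91% in the ends and by -4.35%, -5.45%, -6.43% and -5.32% in those windows. In the ends DKO replicate 1 (4.04%) lay above both WT libraries (3.77% and 3.74%) and replicate 2 (3.69%) below both. The difference between windows was not tested. Coverage of the ends divided by coverage of the rest was 0.814 and 0.828 in WT, and 0.843 to 0.888 in the knockouts. For the first 2 Mb of the autosomes this ratio was 0.895 and 0.898 in WT, and 0.932 to 0.945 in the knockouts. The separation of WT from the knockouts was thus not particular to these ends. Mean coverage of the first 2 Mb was 4.10% in WT, 3.88% in Tet2KO and 4.17% in DKO.

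End peaks of the knockouts lay on constant 5mC regions less often. The share was 18.7% and 17.7% in WT, 14.3% and 13.8% in Tet2KO, with 15.7% and 14.7% for DKO. WT was above all 4 knockout libraries, with a difference of -3.59 points, a split as extreme as 15 allow (exact permutation p = 0.0667, adjusted 0.300). The slope was -1.52 points per step (exact permutation p = 0.156, adjusted 0.300). Outside the ends the means were 15.6% in WT, 12.4% in Tet2KO and 13.2% in DKO, so the gap was not particular to the ends. Median width of end peaks moved the same way (699 bp ± 32.5 in WT, 604.5 bp ± 20.5 in Tet2KO, 659.5 bp ± 58.7 in DKO; SD, n = 2 each), and a wider peak can touch more 5mC, so the part of width in the gap was not tested.

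The 5mC amount in the ends was 1.78% ± 0.0157 in WT and 1.82% ± 0.110 in DKO (SD, n = 2 each), with 1.81% in the single Tet2KO library. The difference between DKO and WT was 0.0329 points (exact permutation p = 1), and 2 against 2 libraries cannot give a p below 0.333. The share of 5mC covered length in the ends was 1.52% in WT and 1.56% in DKO (exact permutation p = 0.667). Without DKO replicate 1 these differences were -0.0451 and -0.00685 points. In coverage the 2 DKO libraries lay on either side of WT, and in share the lower of them lay between the WT libraries.

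**Figure D4:**
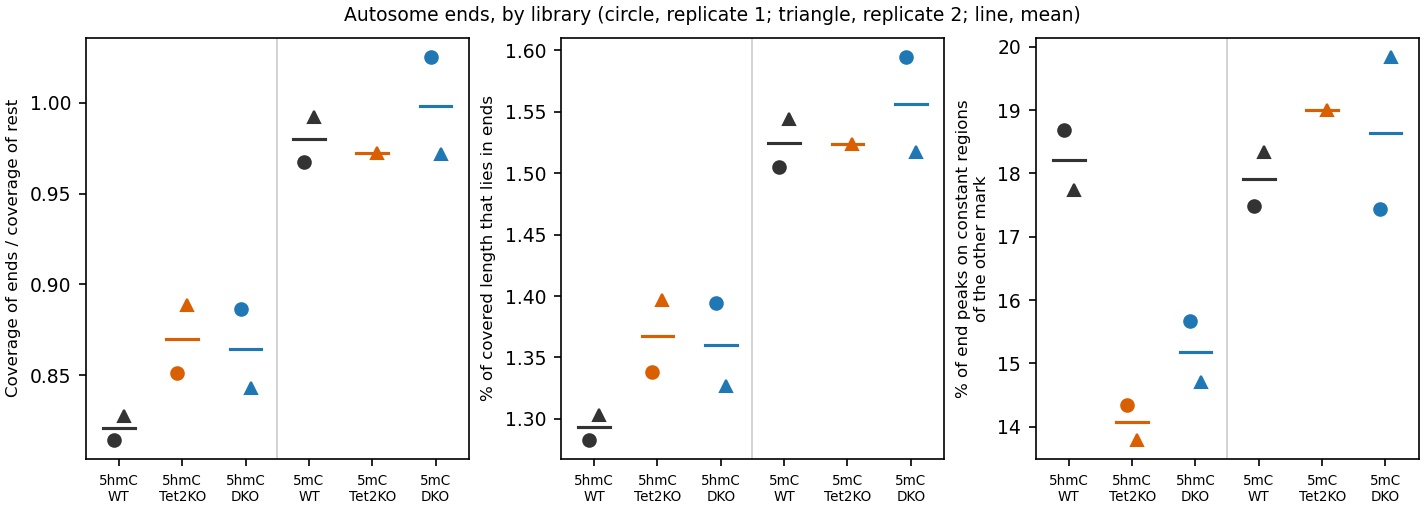
Values of each library for the autosome ends by mark and genotype: coverage of the ends divided by coverage of the rest (left), percent of the covered length that lies in the ends (middle) and percent of end peaks on constant regions of the other mark (right). Symbols are libraries and lines are means (the single 5mC Tet2KO library is its own mean), the axes do not start at 0, and in all 3 panels the 5hmC WT pair is separated from the 4 knockout libraries.

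Single end windows were tested with limma on the arcsine square root of the covered fraction, in 1 fit over all 2 Mb windows with a peak in at least 2 libraries. Of the 19 ends, 18 entered the 5hmC fit, chromosome 17 being without peaks. In the contrast of Tet2KO with WT no end window was called at an adjusted p under 0.05 (limma), while 94 of 1088 windows of the autosomes were (8.64%), 89 of them lower in Tet2KO. At an unadjusted p under 0.05 there were 4 end windows (22.2%, beside 31.2% of all windows tested), and 3 of the 4 were higher in Tet2KO. In direction, 10 of 18 ends were higher, and over all windows 32.9% were. The median difference on the arcsine scale was 0.0027 for the ends and -0.0055 for all windows.

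The window with the lowest p was chromosome 11, where Tet2KO had 16.2% ± 0.496 and WT 18.8% ± 0.0171 (SD, n = 2 each; limma, adjusted p = 0.0658). Both Tet2KO libraries lay below both WT libraries, in an end picked for its low p. The outcome depended on the libraries in the fit, as the end passed with either DKO library left out but not with a WT or Tet2KO library left out. With 1 library left out its arcsine difference ran from -0.0390 to -0.0295. At a score of at least 100 it was -0.0186 (limma, adjusted p = 0.371). Chromosome 8 had 1.88% ± 0.0972 against 1.44% ± 0.0473 (SD, n = 2 each; limma, adjusted p = 0.0744). Chromosome 1 had 0.922% ± 0.347 against 0.536% ± 0.0853 (SD, n = 2 each; limma, adjusted p = 0.0776), but its Tet2KO libraries differed widely, at 0.676% and 1.17%. Without Tet2KO replicate 1, 4 ends passed in limma: chromosome 1 (adjusted p = 0.00176), 6 (0.0204), 8 (0.0226) and 12 (0.0247). In that fit 254 of 1085 windows were called in all (23.4%), so the ends were near the background. All 4 were higher in the remaining Tet2KO library, which is assumed in that fit to vary like the other groups. In windows of 5 Mb, 8 of the 19 ends were called for Tet2KO against WT, all lower in Tet2KO, beside 31.2% of the 465 windows tested (limma). These 8 were chromosomes 4, 5, 6, 8, 10, 11, 14 and 15 (adjusted p from 0.00907 to 0.044), and chromosome 8, higher in Tet2KO over its last 2 Mb, was lower over 5 Mb.

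For DKO against WT, no window was called in limma, in the ends or elsewhere (0 of 1088, 0%). At an unadjusted p under 0.05, 4 of 18 ends (22.2%) stood out, all higher in DKO, beside 9.47% of all windows. They were chromosome 16 (3.24% and 3.02% in DKO, 2.495% and 2.43% in WT), chromosome 8, chromosome 7 and chromosome 6. Their adjusted p in limma was 0.342, 0.342, 0.342 and 0.473. Chromosome 8 had 1.98% and 1.88% in DKO beside 1.47% and 1.41% in WT, and chromosome 7 had 7.40% and 7.12% beside 6.23% and 6.28%. In each of these 3 ends the libraries of the 2 genotypes did not overlap, which their choice by lowest p favours. The share of all windows without such overlap was not counted. Chromosome 16 passed with either Tet2KO library left out but not with a WT or DKO library left out. With 1 library left out its arcsine difference ran from 0.0171 to 0.0235.

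For DKO against Tet2KO, 2 windows of the 1088 were called in limma (0.184%) and none in the ends, and 3 ends had an unadjusted p under 0.05 (16.7%, beside 17.6%). Chromosome 7 led, with 7.40% and 7.12% in DKO and 5.63% and 6.05% in Tet2KO (limma, adjusted p = 0.125). The DKO libraries lay above the WT values of 6.23% and 6.28%, and the Tet2KO libraries below them. In direction, 12 of 18 ends and 68.8% of all windows were higher in DKO than in Tet2KO. The choice of chromosome 7 by lowest p favours such an order of libraries, and the share of all windows with it was not counted. With 1 library left out, the arcsine difference of this end ran from 0.0243 to 0.0333. It passed without Tet2KO replicate 1 and without Tet2KO replicate 2, but not with a WT or DKO library left out. Without Tet2KO replicate 1, chromosomes 1 and 12 passed too (arcsine differences of -0.0307 and -0.0257). Over all windows 10.1% were called without replicate 1 and 6.09% without replicate 2. Chromosome 19 had 1.23% and 1.17% in DKO, under 1.58% and 1.44% in Tet2KO, and chromosome 1 had 0.602% ± 0.0882 against 0.922% ± 0.347 (SD, n = 2 each).

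On the finer scale of 100 kb bins, 235 of the 380 end bins could be tested for 5hmC and none was called in limma in any of the 3 contrasts, nor was any of the 13204 bins elsewhere and in the ends together (0%). At an unadjusted p under 0.05 there were 24 end bins for Tet2KO against WT (10.2%, beside 13.1% of all bins), 22 for DKO against WT (9.36%, beside 8.45%) and 18 for DKO against Tet2KO (7.66%, beside 8.17%). The lowest p for Tet2KO against WT belonged to chromosome 11 at 120618107 to 120718106, with 10.6% against 17.8% (limma, adjusted p = 0.290). On the same end the bin at 119918107 to 120018106 followed with 25.2% against 31.8%. Chromosome 18 at 90671601 to 90771600, its outermost bin, had 0.700% and 0.746% in WT and no 5hmC peak in the 4 knockout libraries (limma, adjusted p = 0.290 for Tet2KO and 0.536 for DKO). The bin of chromosome 7 at 151522678 to 151622677 was covered to 4.63% in DKO but 2.04% in Tet2KO (limma, adjusted p = 0.531).

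In the 5mC fit no window and no bin was called in limma (0% of 1194 windows and 0% of 19676 bins). None of the 19 end windows reached an unadjusted p under 0.05, beside 2.76% of all windows, and 11 of 305 end bins did (3.61%, beside 4.51%). The end with the lowest p was chromosome 7, at 2.58% and 2.86% in WT and 3.22% and 2.73% in DKO, where the genotypes overlapped (limma, adjusted p = 0.997).

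Presence of single regions was compared by counting those with a peak in both libraries of 1 genotype and in neither of the other. In Tet2KO against WT, 64 of the 2983 5hmC end regions were lost (2.15%, 95% exact binomial interval 1.66% to 2.73%), beside 3.27% of all 5hmC regions, and 121 were gained (4.06%, 3.38% to 4.83%), beside 3.42%. In DKO against WT, 86 were lost (2.88%, 2.31% to 3.55%), beside 3.3%, and 163 were gained (5.46%, 4.68% to 6.34%), beside 4.18%. The intervals cover counting error only, and neighbouring regions are not independent. Gains outnumbered losses in both comparisons, which share the WT libraries, and in the full lists the margin was wider in the ends than over all regions. The lists differed in length. Tet2KO lists held 137013 and 140491 peaks, DKO lists 130077 and 143960, while the WT lists had 128471 and 135265. With equal numbers of top peaks both margins of the ends narrowed. Tet2KO then had 3.51% gained against 2.91% lost, and DKO 4.75% against 3.19%. The interval of gains in Tet2KO (3.38% to 4.83%) holds the 3.42% of all regions. With ends of 5 Mb the shares in Tet2KO were 3.20% lost and 3.13% gained. In DKO against Tet2KO, 84 were lost (2.82%), beside 2.21%, and 73 gained (2.45%), beside 2.81%.

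The gains were spread over many ends. In DKO they numbered 27 on chromosome 4, 21 on chromosome 7, 21 on chromosome 11, 15 on chromosome 2 and 15 on chromosome 16. As a share of an end's regions the highest of these was chromosome 16, with 9.38% of 160 regions, and chromosome 11 had 3.83% of 549. On chromosome 11 losses in DKO were as many as gains, 21 each. In Tet2KO, chromosome 16 had 13 gains (8.13%) and 4 losses. For 5mC in DKO against WT, 56 end regions were lost (1.84%), beside 2.37%, and 74 gained (2.44%), beside 2.53%.

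**Figure D5:**
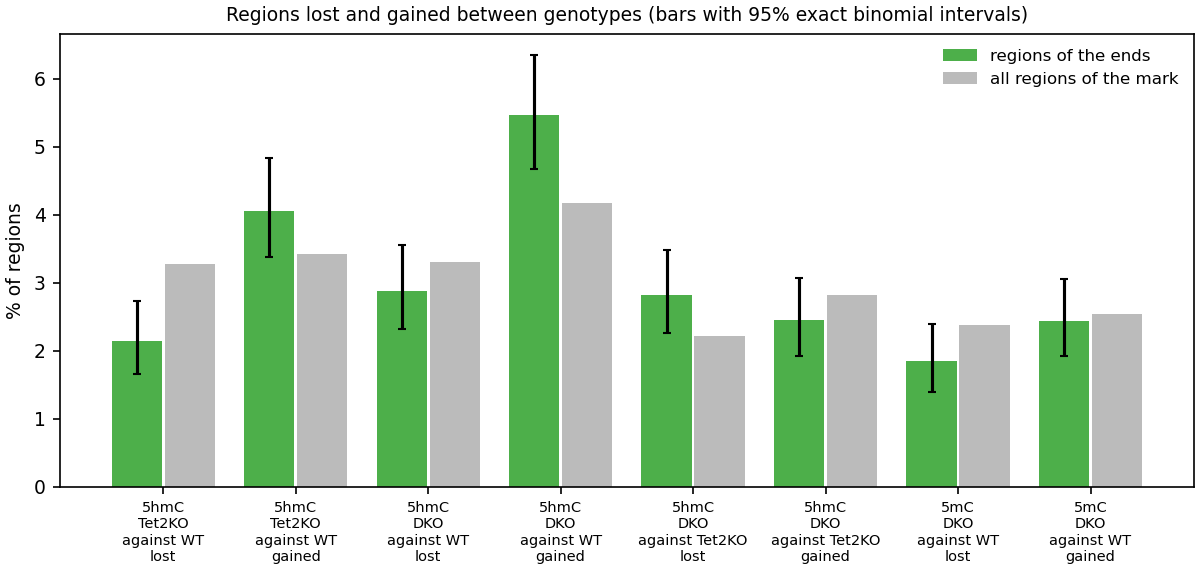
Percent of regions lost or gained in each comparison, for regions of the ends (green, with 95% exact binomial intervals for counting error) and for all regions of the mark (grey). Gains of 5hmC in DKO against WT reach 5.46% in the ends and 4.18% over all regions, and losses in Tet2KO against WT are 2.15% and 3.27%.

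Lost and gained 5hmC regions of the ends differed in their 5mC. Of those lost in Tet2KO, 13 of 64 (20.3%) overlapped a constant 5mC region, and of those gained 2 of 121 (1.65%). In DKO the counts were 20 of 86 lost (23.3%) and 8 of 163 gained (4.91%). Over all regions the shares were 21.6% and 3.86% in Tet2KO and 18.8% and 4.45% in DKO, so the ends showed the gap of the whole autosomes. Median widths of lost and gained end regions were 728 and 669 bp in Tet2KO and 743.5 and 659 bp in DKO.

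The widest regions of each kind show single places. The widest 5hmC end region lost in Tet2KO lay on chromosome 7 at 152488243 to 152489607 (1365 bp), 33 kb from the end. Peaks covered 961 and 998 bp of it in WT, 0 and 0 in Tet2KO, and 1294 and 1318 bp in DKO, so it was absent from Tet2KO and present in both other genotypes. A second region of that kind on the same end, at 152233804 to 152235116, had 1037 and 898 bp in WT, none in Tet2KO, and 1263 and 674 bp in DKO. Both belong to the end that had more 5hmC in DKO than in Tet2KO, an end not called in the main fit. They were picked as the widest gained in DKO against Tet2KO, and their peaks are part of that end's covered length. They are therefore not separate evidence for the difference of the end. On chromosome 11, the region at 120467883 to 120469230 (1348 bp) had 1229 and 1284 bp in WT and none in the 4 knockout libraries.

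The widest 5hmC end region gained in Tet2KO was on chromosome 4 at 153927647 to 153929121 (1475 bp). It had no peak in WT, 703 and 754 bp in Tet2KO, and 1328 and 602 bp in DKO, and it was also the widest gained in DKO. The second gained in Tet2KO, on chromosome 5 at 151081307 to 151082598, had 623 and 1163 bp there and 1236 bp in DKO replicate 1, and no peak in DKO replicate 2. The second gained in DKO, on chromosome 7 at 151597657 to 151598977 (1321 bp), had 1179 and 1023 bp in DKO and 452 bp in Tet2KO replicate 2. It overlaps the constant 5mC region at 151595421 to 151597768, one of the 3 widest of the ends.

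Loss in DKO alone was seen on chromosome 11 at 120844289 to 120845767 (1479 bp), with 1054 and 1195 bp in WT, 884 and 963 bp in Tet2KO, and none in DKO. On chromosome 4 at 155278221 to 155279616 (1396 bp), WT had 839 and 1362 bp, Tet2KO 573 and 575 bp, and DKO none. The widest lost in DKO, on chromosome 11 at 121342106 to 121343774 (1669 bp), had 1529 and 1669 bp in WT and 646 bp in Tet2KO replicate 2 alone. For 5mC, chromosome 6 at 148671923 to 148672411 had 428 and 355 bp in WT and none in the Tet2KO and DKO libraries. A 5mC region of chromosome 7 (152310657 to 152311279) was covered for 559 and 429 bp in the DKO libraries, with no peak in WT and Tet2KO. Under the naming rule, 13 regions carried 16 such calls, since some were called in 2 comparisons. At a minimum score of 100, 1 of the 16 calls was still made.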

How the data were processed

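The authors deposited 1 peak list per library with positions and a score, with no header; the lowest score was 50, and the deposited score has the form MACS writes for a p-value. The build mm9 and the tools MACS 1.4.2, Bowtie 0.12.9 and CASAVA 1.4 stand in the submitters' processing notes without a role. The sources used here do not give read depth or control libraries. With depth unknown, its effect on the number and width of peaks cannot be told. Covered length, peak counts and overlaps were computed with Python 3.11.15, numpy 2.4.6, pandas 2.3.3 and scipy 1.17.1. Exact two-sided permutation tests compared libraries. Coverage of 2 Mb windows and 100 kb bins, counted back from the last peak end and holding a peak in at least 2 libraries, was fitted with limma 3.58.1 (R 4.3.3, trend), with Benjamini-Hochberg adjustment over all windows or bins and calls under 0.05, and was tested on simulated data. The 5mC Tet2KO library, number 2 in its title and 1 in its list's name, entered the fit and was not tested alone. Regions named were the 3 widest constant ones, the 2 widest lost and gained per comparison, the 3 highest and lowest windows, and the windows and bins of lowest p; other stretches were chosen after their values were seen. The members, lists and tests were chosen with earlier results of these data known. Alternatives were a score of at least 100, equal numbers of top peaks, ends of 1 and 5 Mb, each library left out, a replicate block, other filters, untransformed fractions, 25% overlap and merging within 200 bp. No genome or annotation of mm9 was used.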

Additional observations from a re-analysis of the deposited data

How the results depend on the processing

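No end result passed its adjusted threshold in the main tests, and 247 of 317 further values of the main comparisons kept their direction and side of the threshold, or their size. In the exact tests of ends against the rest and of 5mC in DKO against WT, no setting could pass 0.05. There the side of the threshold was fixed, and only the direction could change. Ends of 5 Mb reversed the 5hmC contrast with the rest (1.90 points covered, 21.5 peaks per Mb, 16.4 bp of width), that of 5mC (1.31 points, 34.6 peaks per Mb), and in 5hmC the genotype slope in coverage (-0.0899), the slope in share (-0.0161) and the knockout difference in share (-0.0447). They gave 8 called ends for Tet2KO against WT, and reversed the arcsine differences of chromosomes 1 (0.0023) and 19 (0.0037) in DKO against Tet2KO, 16 (-0.0062) and 8 (-0.0058) in DKO against WT, and 8 (-0.0157) in Tet2KO against WT. These ends take in other sequence. Ends of 1 Mb reversed the overlap of the marks (-2.17 for 5hmC, -1.39 for 5mC) and the knockout difference in coverage (0.0535). A score of at least 100 reversed 5mC coverage (0.0655 points) and density (0.110 peaks per Mb) against the rest, the knockout difference in 5hmC coverage (0.0698), and the 5mC windows of chromosomes 17 (-0.0031) and 16 (-0.0014) in DKO against WT.

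Lost and gained shares moved as well. For 5hmC in Tet2KO against WT, losses were 2.91% with equal numbers of top peaks and 3.20% with ends of 5 Mb, and gains 3.31% at a score of at least 100 and 3.13% with ends of 5 Mb. Gains in DKO against WT were 6.77% at that score and 4.27% (4.265%) with ends of 5 Mb, losses in DKO against Tet2KO 2.23% (2.232% and 2.231%) in each, and 5mC gains 1.67% at that score. Of the 16 lost or gained calls on 13 named regions, 1 was still made at that score, and the cause was not tested. With 1 library left out, fewer libraries have to match, so shares rise by construction: for 5hmC to between 5.96% and 8.52% (lost) and 6.75% and 15.96% (gained) in Tet2KO against WT, 5.14% and 9.88% and 8.76% and 14.5% in DKO against WT, and 5.32% and 12.3% and 6.70% and 9.35% in DKO against Tet2KO, and for 5mC to between 3.48% and 9.99% and 4.67% and 13.7%. The genotype slope in 5hmC coverage ran from -0.0490 to 0.0974, the knockout difference from -0.126 to 0.0277, and the 5mC differences between DKO and WT from -0.0451 to 0.111 (coverage) and -0.00685 to 0.0703 (share). Called 5hmC end windows ran from 0 to 4 in Tet2KO against WT, 0 to 1 in DKO against WT and 0 to 3 in DKO against Tet2KO, beside 0% to 23.4%, 0% to 1.38% and 0% to 10.1% of all windows.

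The title's numbers share no stated animal or batch. With them as a replicate block, 1 end window was called in Tet2KO against WT (chromosome 11, limma, adjusted p = 0.0176) and 1 in DKO against Tet2KO (chromosome 7, 0.0387), beside 0 and 0 without it. The block changed no other call on an end window, and over all windows calls went from 94 to 191 of 1088 (17.6%), from 2 to 25 (2.3%) and, in DKO against WT, from 0 to 2 (0.184%). Same-number deviations correlated at 0.0681, 0.386 and 0.146 over windows in 5hmC and at -0.241 in 5mC, where crossed pairs, added after seeing the data, gave 0 calls. Depth is unknown for every library, so a missing peak cannot be told apart from a shallow library.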
